A study of Homo sapiens with 6 samples.

Results

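The metallothionein genes MT1E, MT1F, MT1G, MT1M, MT1X and MT2A were examined together with 3 regulators of cellular zinc, the transcription factor gene MTF1, the zinc exporter gene SLC30A1 and the zinc importer gene SLC39A10. The genes were chosen by symbol, and 8 of the 9 names have a row among the 33392 genes of the expression table. MT1G was not analysed here. The 6 libraries come from HK-2, an immortalised human proximal tubule epithelial cell line, and TGF-β1, a cytokine known as a driver of renal fibrosis, had been given to the cells of every library. In the scramble group (n = 3) the cells received a non-targeting siRNA, and in the siDYRK2 group (n = 3) one that targets the kinase gene DYRK2. All labels give 48 h and none gives the cytokine dose or the number of siRNA sequences. No library without TGF-β1 enters any comparison here. The comparison asks which transcripts change with DYRK2 silencing in cytokine-stimulated cells.

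Metallothioneins are small cysteine-rich proteins that bind zinc, copper and cadmium and buffer free zinc in the cytosol. Their genes are switched on by MTF1, a zinc-sensing transcription factor that binds metal response elements close to the transcription start, and several also respond to glucocorticoids and oxidative stress. MTF1 also activates SLC30A1, whose product exports zinc across the plasma membrane, and is known to repress SLC39A10, whose product imports zinc. In the kidney tubule, metallothioneins take part in the handling of cadmium and zinc.

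The sequence upstream of the transcription start is shown for MT1X and SLC30A1. Matches to the core of the metal response element were found there in a metallothionein gene that rose and in a zinc exporter gene that was not called. The search covered the 250 bases before each RefSeq start on GRCh38.p14, and each line gives the bases of that window outside the GENCODE 29 gene model, 5′ to 3′ on the strand of the gene. Capitals mark the core of the metal response element, searched as TGCACNC or TGCGCNC on both strands, with overlapping matches counted separately.
MT1X, chr16:56682220-56682423, plus strand: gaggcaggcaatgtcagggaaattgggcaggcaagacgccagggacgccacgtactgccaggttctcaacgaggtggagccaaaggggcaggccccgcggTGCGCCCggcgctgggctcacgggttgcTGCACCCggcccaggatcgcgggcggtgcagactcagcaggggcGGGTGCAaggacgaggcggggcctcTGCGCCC
SLC30A1, chr1:211579162-211579411, minus strand: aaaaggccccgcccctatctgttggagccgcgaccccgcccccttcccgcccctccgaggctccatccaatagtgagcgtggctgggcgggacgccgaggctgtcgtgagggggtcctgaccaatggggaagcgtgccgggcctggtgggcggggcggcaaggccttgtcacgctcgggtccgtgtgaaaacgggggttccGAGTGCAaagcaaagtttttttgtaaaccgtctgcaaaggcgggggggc

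The window of MT2A, chr16:56608334-56608583 on the plus strand, held 7 cores, that of MT1X 4 and that of SLC30A1 1. The SLC30A1 window lies wholly upstream of the GENCODE 29 gene model, whose start on the minus strand is 211578742. The bases next to that start were not searched. The MT2A window lies inside the first exon of a longer GENCODE 29 transcript and is not printed. Its cores begin at positions −246, −168, −153, −139, −88, −54 and −8 relative to the RefSeq start, with those at −168 and −88 on the opposite strand. At least 4 cores were found in 0.37% of the 35116 windows of all genes, and at least 1 in 24.8%. Over the 14936 windows of tested genes the shares were 0.522% and 32.2%. No core was found in the 250 bases of MTF1 or of either of the 2 windows of SLC39A10, which says only that these letters do not occur there. Both SLC39A10 windows lie inside the GENCODE 29 gene model, which starts at 195575977. Cores were also counted in a 300-base window that runs past the RefSeq start. That window held 8 cores in MT2A, 4 in MT1X, 2 in SLC30A1 and 0 in MTF1. For SLC39A10 it held 1 core at the start next to 195656976-195657225 and 0 at the other. Within the 250 bases before the start, the nearest core lay 8 to 2 bases before it in MT2A. The nearest upstream core lay 53 to 47 bases before the start in MT1X and 49 to 43 bases before it in SLC30A1. A TATAAA word began 29 bases before the start in MT2A and 30 bases before it in MT1X. No window was used for MT1E, MT1F or MT1M.

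**Figure D1:**
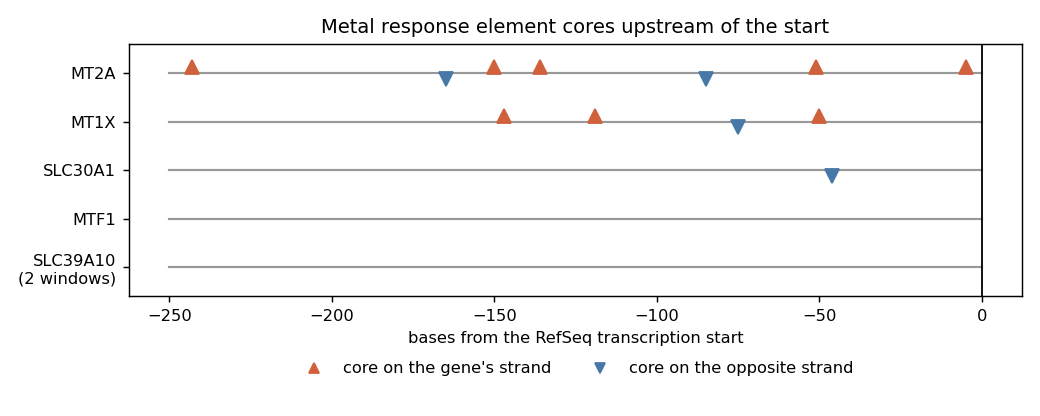
Positions of metal response element cores (triangles, at the middle of each match) in the 250 bases before the RefSeq transcription start of 5 genes, with the distance from the start in bases on the horizontal axis. MT2A has 7 cores and MT1X 4, SLC30A1 has 1, and the MTF1 and SLC39A10 windows have 0.

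The siRNA target was lower in every siDYRK2 library, at 1.45, 1.54 and 1.49 FPKM against 5.84, 6.06 and 5.96 FPKM with the scramble siRNA. FPKM counts sequenced fragments relative to the length of the transcript and the size of the library. Between 26.3% and 27.8% of the summed FPKM of a library belonged to mitochondrially encoded transcripts, and no library stood apart, with correlations across genes of 0.989 to 0.991 within groups and 0.974 to 0.976 between them. Across the 15121 genes whose mean reached 0.5 FPKM, limma on log2(FPKM + 0.5) called 38.3% changed with siDYRK2, 20.4% higher and 17.9% lower, at a Benjamini-Hochberg adjusted p under 0.05. The cells expressed epithelial markers, at summed levels of 338 to 355 FPKM with the scramble siRNA and 241 to 252 FPKM with siDYRK2, where 4 of the 6 were called lower and 0 higher, and the part of this shift in the results was not tested. Of 10 proximal tubule markers with a row, only 1 reached a mean of 0.5 FPKM. SLC34A1, SLC5A2 and CUBN stayed at or below 0.14 FPKM in every library. None of the 5 fibroblast and 5 endothelial markers with a row reached a mean of 0.5 FPKM over the 6 libraries. The fibroblast marker sums were 0.35 to 0.42 FPKM with the scramble siRNA and 0.62 to 0.75 FPKM with siDYRK2. In the siDYRK2 group the mean of COL1A1 was 0.57 FPKM. The endothelial marker sums were 0.05 to 0.09 and 0.1 to 0.16 FPKM. CD68 made up nearly all of the immune marker sum. Fewer cells that express a gene and less RNA per cell cannot be told apart in bulk libraries. The labels do not say whether replicates were separate cultures, so every p rests on a spread among libraries that may be technical only.

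Metallothionein transcripts were higher after DYRK2 silencing, with 1 exception among the members measured. MT2A, MT1E, MT1X and MT1M rose by 1.53-fold to 2.17-fold, while MT1F did not pass the test. Of the regulators, SLC39A10 rose 1.65-fold, and MTF1 and SLC30A1 did not pass the test. In all, 5 of the 8 members were called higher by limma and 0 lower, where 20.4% of all tested genes were called higher. At an unadjusted p under 0.05 the counts were also 5 and 0. The 2 groups did not overlap for the 5 genes called higher, against 51.7% of all tested genes, 27.4% higher and 24.3% lower. A call with a log2 fold change at or above that of MT1E was made for 215 tested genes, or 1.42%, and for 3 members, MT1X, MT2A and MT1E. The median log2 fold change of the 8 members was 0.62, and that of all tested genes 0.01.

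**Figure D2:**
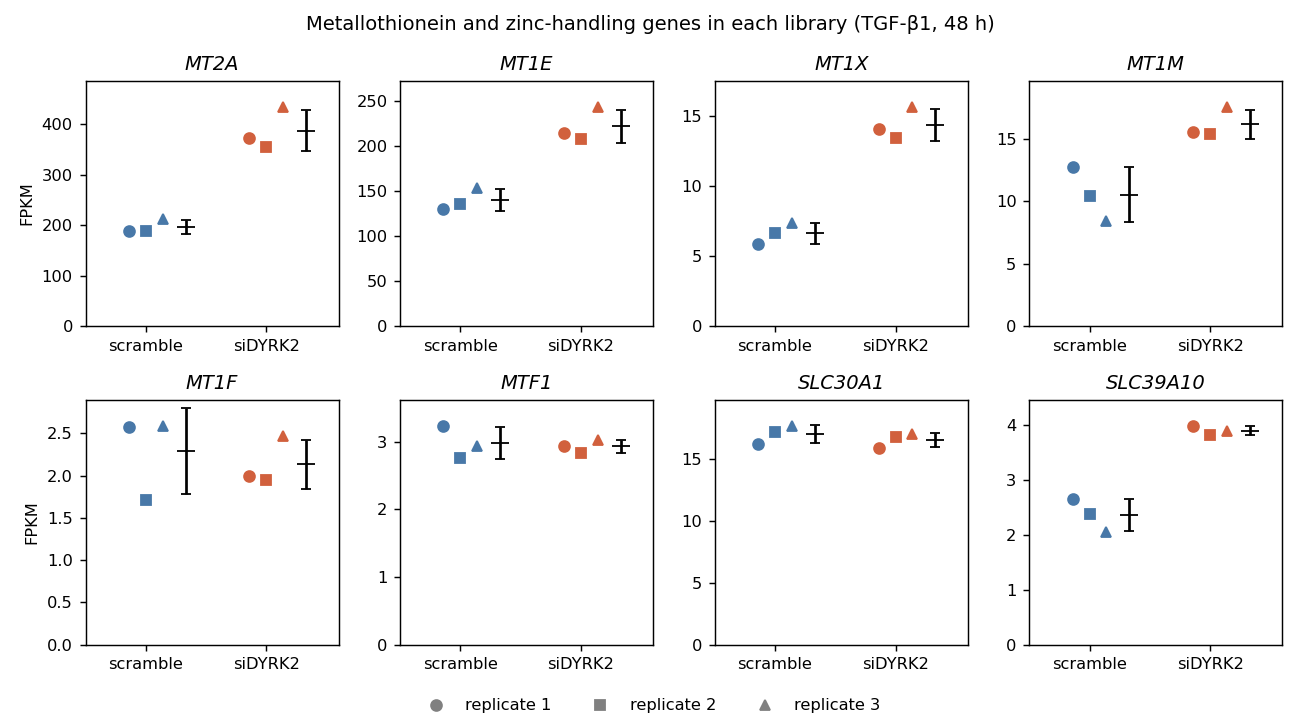
FPKM of the 8 members in each library, with the vertical axis in FPKM starting at 0 in each panel, the library replicate as the symbol, and the group mean with its SD over 3 libraries as the black bar. The siDYRK2 libraries lie above all scramble libraries for MT2A, MT1E, MT1X, MT1M and SLC39A10, and the groups overlap for MT1F, MTF1 and SLC30A1.

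MT2A (ENSG00000125148; GRCh38 chromosome 16, 56608199 to 56609497, plus strand) was the most abundant metallothionein transcript. It stood at 189.43, 188.70 and 212.74 FPKM in the scramble libraries and at 373.17, 355.21 and 433.90 FPKM in the siDYRK2 libraries. Every siDYRK2 library lay above every scramble library, and replicate 3 was the highest in both groups. The mean rose 1.97-fold from 197 ± 13.7 to 387 ± 41.2 FPKM (SD, n = 3), a log2 fold change of 0.97 with an SE of 0.0807 (adjusted p = 1.5e-04 by limma). MT2A ranked 55th of 15121 tested genes by its mean level and 81st by its fold change.

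MT1E (ENSG00000169715; GRCh38 chromosome 16, 56625475 to 56627112, plus strand) is the second large contributor to the metallothionein pool. Its levels were 129.62, 135.75 and 152.95 FPKM with the scramble siRNA and 214.05, 207.84 and 242.70 FPKM with siDYRK2. The groups were separate and replicate 3 was again the highest of each. The mean rose 1.59-fold, a log2 fold change of 0.67 with an SE of 0.0770 (adjusted p = 6.2e-04 by limma).

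MT1X (ENSG00000187193; GRCh38 chromosome 16, 56682424 to 56684196, plus strand) was expressed at a far lower level and had the largest fold change of the members. Its scramble libraries stood at 5.85, 6.65 and 7.38 FPKM and its siDYRK2 libraries at 14.10, 13.42 and 15.65 FPKM. All siDYRK2 values were above all scramble values, and the 2.17-fold rise corresponded to a log2 fold change of 1.07 with an SE of 0.0882 (adjusted p = 1.5e-04 by limma). The MT1X value is less certain than the others, because 19.1% of the 100-base words of its transcript also occur in a transcript of another gene, AC026461.1. For MT2A, MT1E, MT1F and MT1M 0% of the 100-base words occur in another gene, and of the 50-base words 3.59% to 7.05% do, against 45.1% in MT1X. The read length is not given in the sources used here.

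MT1M (ENSG00000205364; GRCh38 chromosome 16, 56632233 to 56633986, plus strand) was at 12.75, 10.40 and 8.39 FPKM with the scramble siRNA and at 15.51, 15.39 and 17.51 FPKM with siDYRK2. The groups did not overlap, but the scramble libraries were widely spread and in a different order from MT2A, with replicate 3 the lowest. The 1.53-fold rise gave a log2 fold change of 0.61 with an SE of 0.135 (adjusted p = 0.010 by limma).

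MT1F (ENSG00000198417; GRCh38 chromosome 16, 56657694 to 56660698, plus strand) was the member of the family that was not called. It stood at 2.58, 1.71 and 2.59 FPKM with the scramble siRNA and at 1.99, 1.95 and 2.47 FPKM with siDYRK2, so that the siDYRK2 values lay inside the scramble range. The log2 fold change was −0.07 with a 95% interval from −0.42 to 0.27 (limma adjusted p = 0.73), an interval that lies below the fold change of each of the 4 members called higher. The ratio of MT1F to MT2A, picked out after the values were seen, was lower in every siDYRK2 library. After 0.5 FPKM was added to both genes, the log2 ratio was −7.20 ± 0.0250 against −6.16 ± 0.241 (SD, n = 3).

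Other genes of the family, from a list of 13 metallothionein genes, included MT1A and MT1L, which were also called higher. The list has 8 genes with a row, of which 7 were tested, 6 were called higher and 0 lower against 20.4% and 17.9% of all tested genes, and the median log2 fold change was 0.92. At an unadjusted p under 0.05 the limma counts were also 6 and 0. MT1A (ENSG00000205362; GRCh38 chromosome 16, 56638666 to 56640087, plus strand), a protein-coding gene of the cluster, stood at 4.79, 5.99 and 4.90 FPKM with the scramble siRNA and at 15.01, 13.53 and 13.56 FPKM with siDYRK2. Its 2.68-fold rise was larger than that of any member (log2 fold change 1.35, SE 0.0854, limma adjusted p = 4.7e-05) and ranked 28th of 15121 genes. MT1L, annotated as a transcribed pseudogene, was at a low level, at 0.40, 1.11 and 1.04 FPKM, against 2.38, 1.85 and 1.75 FPKM with siDYRK2 (log2 fold change 0.92, limma adjusted p = 0.016). Its call was lost without siDYRK2 replicate 1 (limma adjusted p = 0.055) and without the filter on low values (limma adjusted p = 0.055). MT3, a metallothionein known from the brain, did not exceed 0.03 FPKM in the 6 libraries. The 5 metallothionein pseudogenes with a row were below the filter, with no value above 0.73 FPKM.

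**Figure D3:**
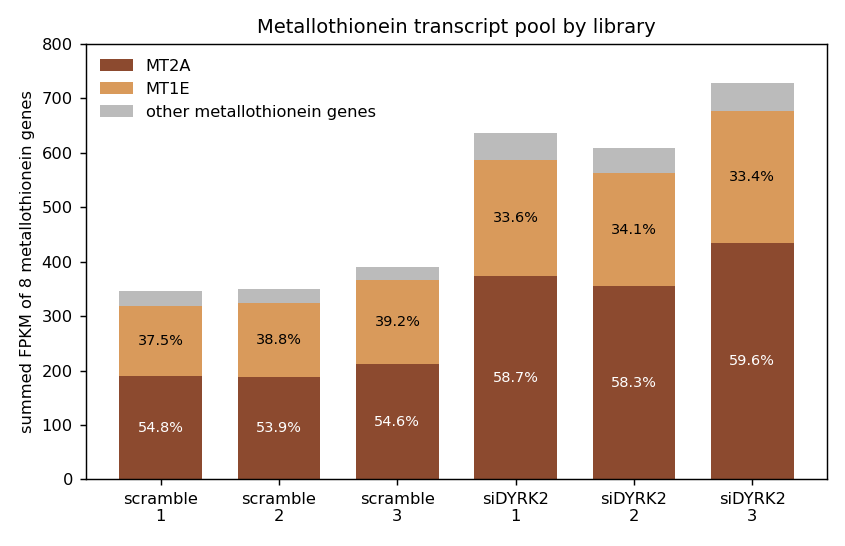
Summed FPKM of the 8 metallothionein genes with a row, one bar per library starting at 0, split into MT2A, MT1E and all others, with the share of MT2A and MT1E printed in each bar. The sums are 345 to 390 FPKM in the scramble libraries and 609 to 728 FPKM in the siDYRK2 libraries.

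MT2A and MT1E made up most of the metallothionein pool in every library. The 8 genes summed to 345, 350 and 390 FPKM with the scramble siRNA and to 636, 609 and 728 FPKM with siDYRK2, a ratio of means of 1.82. MT2A and MT1E together made up 92.3% to 93.8% of the pool in every library. The share of MT2A was 54.4% ± 0.50 with the scramble siRNA and 58.9% ± 0.691 with siDYRK2 (SD, n = 3), while that of MT1E was 38.5% ± 0.875 and 33.7% ± 0.383 (SD, n = 3). MT2A exceeded MT1E by 1.46-fold, 1.39-fold and 1.39-fold in the scramble libraries and by 1.74-fold, 1.71-fold and 1.79-fold in the siDYRK2 libraries. The groups did not overlap in this ratio. The log2 ratios were taken after 0.5 FPKM was added to each gene. On that scale MT2A to MT1E was 0.31 higher with siDYRK2 (SE 0.0304), and MT1A to MT1E 0.68 higher (SE 0.158). MT1X to MT2A differed by 0.09 (SE 0.0595), with overlapping groups. Without the added 0.5 FPKM, the ratios of MT1X to MT2A did not overlap. They were 0.0309, 0.0352 and 0.0347 with the scramble siRNA and 0.0378, 0.0378 and 0.0361 with siDYRK2. The ratios of MT2A to MT1E, MT1A to MT1E, MT1X to MT2A and MT1F to MT2A were picked after the values were seen. For the log2 ratios the exact two-sided permutation p was 0.1 for MT2A to MT1E, MT1A to MT1E and MT1F to MT2A. That is the smallest value that 3 against 3 libraries allow. For MT1X to MT2A the exact permutation p was 0.2. Adjusted over the 4 ratios, the smallest exact permutation p was 0.13. With 3 against 3 libraries no ratio could have passed the threshold used for the calls. The permutation test therefore cannot decide whether the ratios changed.

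By level, the order with the scramble siRNA was MT2A, MT1E, MT1M, MT1X, MT1A, MT1F and MT1L, in FPKM and so per transcript length. Adjacent genes in that order did not share values over the 3 libraries, except that MT1X, at 5.85 to 7.38 FPKM, overlapped MT1A at 4.79 to 5.99 FPKM. With siDYRK2, MT1M, MT1X and MT1A lay close together, at 15.39 to 17.51, 13.42 to 15.65 and 13.53 to 15.01 FPKM, and the neighbours in that order overlapped. MT1F and MT1L also overlapped with siDYRK2, at 1.95 to 2.47 and 1.75 to 2.38 FPKM.

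The metallothionein genes lie side by side on chromosome 16, where the 7 tested genes span 76 kb from the start of MT2A to the end of MT1X. MT1F, which was not called, lies 49.5 kb from MT2A, between MT1A at 30.5 kb and MT1X at 74.2 kb, both called higher. Of 9 listed genes on either side of the cluster 6 were tested, and 4 of these were called higher and 0 lower, against 20.4% and 17.9% of all tested genes. Their median log2 fold change was 0.19. At an unadjusted p under 0.05 the limma counts were also 4 and 0. HERPUD1, a component of endoplasmic reticulum protein quality control, rose from 15.9 to 19.9 FPKM (log2 fold change 0.32, limma adjusted p = 4.8e-04). OGFOD1, a ribosomal protein hydroxylase, and NUDT21, a cleavage factor of polyadenylation, rose by log2 fold changes of 0.24 and 0.15. The call of NUDT21 was lost without siDYRK2 replicate 2 (limma adjusted p = 0.053). BBS2 and NUP93, the tested neighbours closest to the cluster on either side, were not called, with log2 fold changes of 0.04 and 0.09 (limma adjusted p = 0.62 and 0.15).

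**Figure D4:**
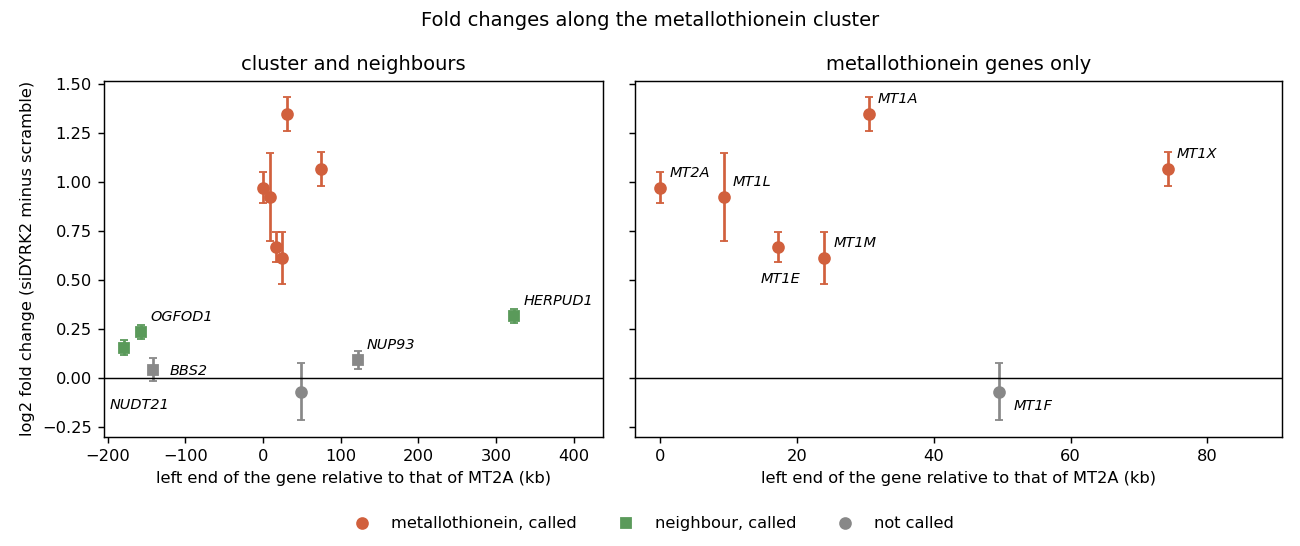
Log2 fold change (vertical axis, siDYRK2 minus scramble, bars giving the SE) against the position of the left end of each gene relative to that of MT2A in kb, for 7 metallothionein genes and 5 of the 6 tested neighbours (left) and for the metallothionein genes alone (right). The metallothionein genes called higher lie between 0.61 and 1.35, MT1F lies at −0.07, and the neighbours drawn lie between 0.04 and 0.32.

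MTF1 (ENSG00000188786; GRCh38 chromosome 1, 37809567 to 37859620, minus strand), the transcription factor of the metallothionein genes, was at 3.24, 2.77 and 2.94 FPKM with the scramble siRNA and at 2.94, 2.84 and 3.03 FPKM with siDYRK2. The groups overlapped. The log2 fold change was −0.02, with a 95% interval from −0.17 to 0.14 (limma adjusted p = 0.86). Zinc sensing by MTF1 acts on the protein, which was not measured.

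SLC30A1 (ENSG00000170385; GRCh38 chromosome 1, 211571568 to 211578742, minus strand), the plasma membrane zinc exporter ZnT1, was at 16.22, 17.18 and 17.66 FPKM with the scramble siRNA and at 15.88, 16.73 and 16.96 FPKM with siDYRK2. The groups overlapped here too, and the log2 fold change was −0.04 with a 95% interval from −0.15 to 0.06 (limma adjusted p = 0.50). The upper end of that interval lies below the fold changes of MT2A, MT1E, MT1X and MT1M.

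SLC39A10 (ENSG00000196950; GRCh38 chromosome 2, 195575977 to 195737702, plus strand), the plasma membrane zinc importer ZIP10, was at 2.64, 2.37 and 2.05 FPKM with the scramble siRNA and at 3.98, 3.82 and 3.88 FPKM with siDYRK2. Each siDYRK2 library was above each scramble library, and the siDYRK2 libraries were tightly grouped. The mean rose 1.65-fold from 2.35 ± 0.295 to 3.89 ± 0.0808 FPKM (SD, n = 3), or 0.63 on the log2 scale with an SE of 0.0816 (adjusted p = 0.0011 by limma).

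The zinc transporters as a whole, SLC30A1 and SLC39A10 included, changed in both directions. Of 24 listed transporters 22 have a row and 18 were tested, and 6 of these were called higher and 4 lower, against 20.4% and 17.9% of all tested genes. The median log2 fold change of the 18 was 0.10. The SLC39A family, which moves zinc into the cytosol, had all 6 of the higher calls among its 11 tested genes, together with 2 of the lower calls. The SLC30A family, which moves zinc out of the cytosol, had 2 lower and 0 higher calls among 7 tested genes, and at an unadjusted p under 0.05 the limma counts for it were also 2 and 0. Whether the families differ from each other was not tested.

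Among the importers, SLC39A14 (ZIP14), which also carries iron and manganese, stood at 63.00, 64.55 and 66.70 FPKM with the scramble siRNA and at 82.82, 83.63 and 80.46 FPKM with siDYRK2. It rose 1.27-fold (log2 fold change 0.34, SE 0.0325, limma adjusted p = 2.7e-04). SLC39A7 (ZIP7), which releases zinc from the endoplasmic reticulum, rose from 27.2 ± 0.479 to 33.7 ± 1.38 FPKM (SD, n = 3), 1.24-fold. SLC39A6 (ZIP6), a known partner of ZIP10, rose 1.15-fold to 110.0 ± 4.36 FPKM, and SLC39A1 (ZIP1) 1.13-fold to 103 ± 2.28 FPKM (SD, n = 3). SLC39A3 was called higher at the edge of the threshold (log2 fold change 0.17, limma adjusted p = 0.049), and 9 of 14 alternative analyses lost this call. SLC39A8 (ZIP8), a carrier of zinc, manganese and cadmium, stood at 6.78 ± 0.0115 and 7.55 ± 0.419 FPKM (SD, n = 3), with an adjusted p of 0.052 by limma, and was called higher in 3 of 14 alternative analyses.

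SLC39A9 (ZIP9) was at 15.90, 15.35 and 15.19 FPKM with the scramble siRNA and at 9.13, 9.96 and 8.98 FPKM with siDYRK2, without overlap. It fell by 0.70 on the log2 scale (SE 0.0477, limma adjusted p = 6.4e-05). SLC30A7 (ZnT7), which loads zinc into the Golgi, fell from 4.11 ± 0.238 to 2.82 ± 0.14 FPKM (SD, n = 3), or −0.47 on the log2 scale (adjusted p = 0.0011 by limma). SLC39A13 (ZIP13) fell from 10.6 to 8.68 FPKM (log2 fold change −0.27, limma adjusted p = 0.0021), and SLC30A3 (ZnT3), a low-level transcript, from 0.770 to 0.433 FPKM (limma adjusted p = 0.017). The SLC30A3 call was lost without scramble replicate 1 and without scramble replicate 3 (limma adjusted p = 0.053 for each).

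**Figure D5:**
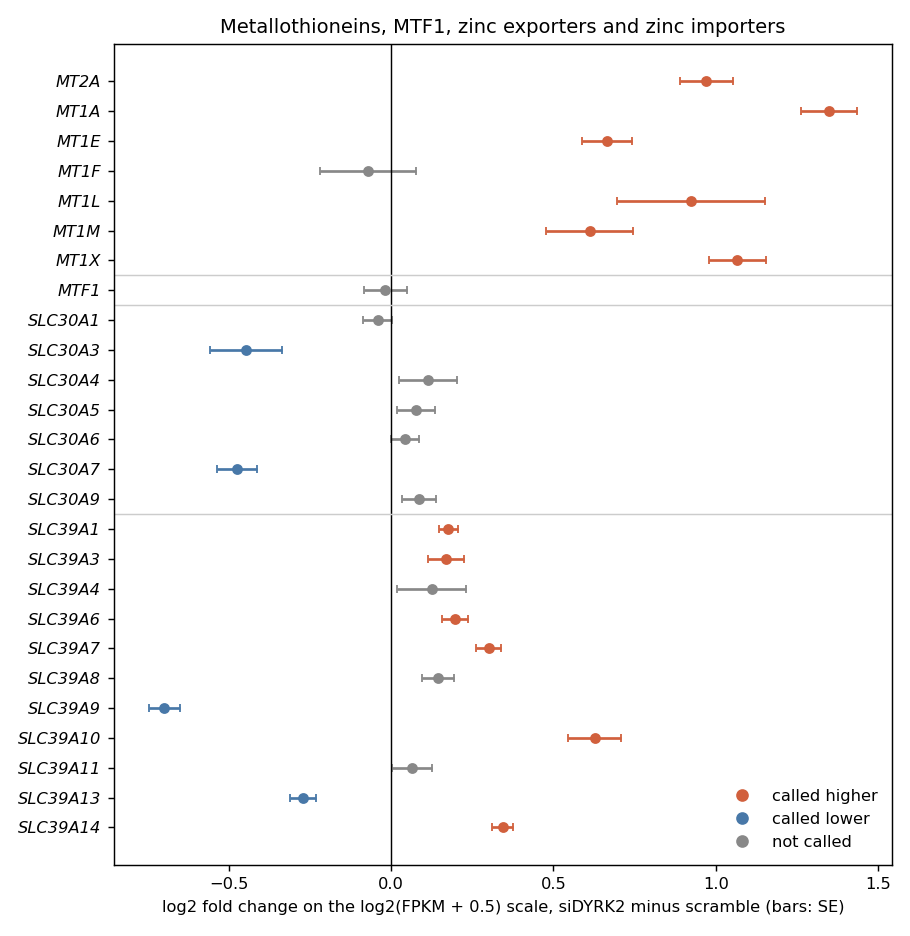
Log2 fold change (horizontal axis, siDYRK2 minus scramble after log2(FPKM + 0.5), bars giving the SE) of the tested metallothionein genes, MTF1, the SLC30A exporters and the SLC39A importers, coloured by the limma call at an adjusted p under 0.05. The 6 metallothionein genes called higher lie at 0.61 to 1.35, SLC39A10 at 0.63 lies above the other transporters, and SLC39A9 at −0.70 is the lowest.

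Genes known to respond to metals or electrophiles moved in both directions. Of 12 such genes, all tested, 5 were called higher and 4 lower, against 20.4% and 17.9% of all tested genes, and the median log2 fold change was −0.05. HMOX1, the inducible haem oxygenase, stood at 11.86, 11.48 and 12.98 FPKM with the scramble siRNA and at 36.89, 37.87 and 43.37 FPKM with siDYRK2. SELENOH, a nuclear selenoprotein gene reported as a target of MTF1 in the mouse, rose from 3.38 ± 0.617 to 10.8 ± 3.08 FPKM (SD, n = 3), with an adjusted p of 0.0013 by limma. NQO1, a quinone reductase driven by NRF2, fell from 340 ± 8.71 to 273 ± 8.24 FPKM, and NDRG1, another gene reported to depend on MTF1 in the mouse, from 8.46 ± 0.258 to 5.99 ± 0.322 FPKM (SD, n = 3), with an adjusted p of 5.0e-04 for both by limma.

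The calls were also counted by the number of metal response element cores. Of the 75 tested genes with at least 4 cores in a window of 250 bases before a start, 25.3% were called higher and 20% lower, against 23.4% and 18.1% of the 6199 with no core. The 75 include MT1X and MT2A, both called higher. CSF2RA is entered more than once, and antisense pairs such as CSRP1 and CSRP1-AS1 occur, so the entries are not all independent. Over all 10395 tested genes with a window the shares were 23.6% and 18.5%. The median log2 fold change was −0.02 with at least 4 cores and 0.02 with no core.

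The genes outside all lists whose levels followed the mean log2 level of the 5 metallothionein members most closely over the 6 libraries were RPS15, HTT, WDR18, COX6A1 and NUP43, with Pearson correlations of 0.997 to 0.999. These coefficients are a description, because the points are 2 groups of 3 libraries and the correlation was above 0.95 for 814 of the tested genes. The fold changes of these 5 genes were smaller than those of MT2A, MT1E, MT1X and MT1M, with log2 values of 0.21 to 0.39.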

How the data were processed

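Per the labels' protocols, RNA isolated with Trizol was cleared of DNA before Illumina library preparation and sequencing by a company. HISAT2, StringTie and GRCh38 are named in the submitters' processing notes. The deposited table holds FPKM that the authors computed for 33392 genes in 6 libraries. Of the values of short single-transcript genes, 26.4% to 30.3% per library lay within 0.1 of a whole read at the best step, against 20% by chance, so whole reads were not recovered, no count model was used, and depth and counting error are unknown.

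The 15121 genes whose mean reached 0.5 FPKM entered a fit by limma 3.58.1 (R 4.3.3) to log2(FPKM + 0.5), using its mean-variance trend and no replicate block, with Benjamini-Hochberg adjustment over all tested genes at 0.05. Fold values printed as N-fold compare mean FPKM, and fold changes on the log scale understate the change of low genes. Members and lists were chosen with earlier results of these data known. Named genes are all members, up to 4 called genes with the smallest adjusted p in each other list, every zinc transporter called, and the 5 genes most like the metallothioneins. Others were named after their values were seen, to complete a count or give a level. For 1 cluster neighbour and 1 proximal tubule marker, which stay in the counts, values are not reported here. Promoter windows are from RefSeq (GRCh38.p14), where 5 of the 8 members were matched by symbol. Gene positions, transcripts and shared words are from GENCODE 29 on GRCh38. How shared reads and strand were counted is not given in the sources used here. Alternatives were other pseudocounts, filters and scalings, no trend, the replicate number as a block, and each library left out.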

Additional observations from a re-analysis of the deposited data

How the results depend on the processing

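The counts of 5 members called higher and 0 called lower held under every alternative run, as did the directions and calls of MT2A, MT1E, MT1X, MT1M and SLC39A10. The log2 fold change of MT2A ranged from 0.89 to 1.03 and that of MT1M from 0.47 to 0.75. MT1F and MTF1, which were not called, changed sign: with 1 library left out MT1F ranged from −0.23 to 0.0096 and MTF1 from −0.062 to 0.035, with MT1F at 0.0073 without scramble replicate 1 and 0.0096 without scramble replicate 3, and MTF1 at 0.035 without scramble replicate 1 and 0.0028 without siDYRK2 replicate 2. Same-numbered libraries did not deviate together (correlations of −0.077, 0.024 and −0.088). These values show no sign of pairing by replicate number but cannot exclude it. With the replicate number as a block, 2495 genes were called higher and 2321 lower, with 5 members higher. Median-ratio scaling gave 2746 higher and 2940 lower, against 3079 and 2714, and moved the median log2 fold change of all genes from 0.0086 to −0.0083. Over the 48 genes followed through the alternatives, 642 of 670 values kept direction and call. Depth is unknown, so precision at low levels, as for MT1L, cannot be given.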

Other observations

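Copper is another metal that metallothioneins bind, and genes of copper handling showed small changes. Of 12 listed genes 10 were tested, 3 called higher and 1 lower by limma, a share of 4 in 10 that is close to the 38.3% called among all tested genes, and the median log2 fold change was 0.09. SLC31A1, the copper importer CTR1, rose from 25.7 ± 0.601 to 29.2 ± 0.656 FPKM, and SCO1, a copper chaperone of cytochrome oxidase, from 8.68 ± 0.284 to 10.1 ± 0.156 FPKM (SD, n = 3). COMMD1, which takes part in copper export, fell from 3.27 ± 0.271 to 2.26 ± 0.135 FPKM (SD, n = 3), with an adjusted p of 0.0031 by limma. SOD1, the copper and zinc superoxide dismutase, rose by a log2 fold change of 0.11, a call lost in 7 of 14 alternative analyses.

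Genes of the glucocorticoid response, which can also switch on MT2A, changed in both directions. All 9 tested genes of a list of 10 were called by limma, 6 higher and 3 lower, where 20.4% and 17.9% of all tested genes were, and the median log2 fold change was 0.53. FKBP5, a co-chaperone of the glucocorticoid receptor, stood at 13.25, 14.16 and 13.14 FPKM with the scramble siRNA and at 30.61, 31.23 and 28.84 FPKM with siDYRK2. KLF9 and the phosphatase gene DUSP1 rose 2.81-fold and 1.69-fold, beside the clock gene PER1. The genes called lower were CRISPLD2, GLUL and NR3C1, which encodes the receptor and fell from 12.1 ± 0.572 to 9.20 ± 0.284 FPKM (SD, n = 3). CRISPLD2 fell 4.16-fold, from 2.64 ± 0.284 to 0.633 ± 0.0513 FPKM (SD, n = 3), with an adjusted p of 4.7e-05 by limma. GLUL fell from 11.3 to 9.29 FPKM. ZBTB16, below the filter, was listed at 0.03 to 0.04 FPKM with the scramble siRNA and at 0.82 to 0.91 FPKM with siDYRK2. The list was written with earlier results of these data known, and its part in the metallothionein levels was not tested.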
